A study of Mus musculus with 13 samples.

Results

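The genes described here are 10 genes of epithelial cells: the keratins Krt7, Krt8, Krt18, Krt19 and Krt20, the adhesion genes Epcam, Cdh1 and Dsp, and the transcription factors Elf3 and Ehf. They were taken as all probe sets whose only gene symbol on the platform was one of these names, which gave 18 probe sets of the 45101 on the array, and 10 genes of 18194. RNA was measured on 13 Affymetrix Mouse430_2 arrays from whole implantation sites, each a piece of uterus with the embryo in it, collected from female ICR mice of 25 g. All recipients were mice on day 3 of pseudopregnancy when embryos were transferred. Mouse embryos had been flushed on day 4 and Wistar rat embryos on day 5 of pregnancy. The groups were rat sites from uteri that carried mouse embryos as well (called co-transfer sites below), rat sites from uteri with rat embryos only, and mouse sites, each on day 9 and on day 7 of pregnancy. There were 3 arrays of co-transfer sites of day 7, and 2 of every other kind. Each array mixes maternal mouse tissue with embryonic tissue of either species, so fewer cells of a type and less RNA per cell cannot be told apart. The probes match mouse transcripts, and how well rat transcripts bind them was not tested.

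Simple epithelia, such as the lining and the glands of the uterus and the outer layers of the early embryo, fill their cells with keratin filaments. Each filament is built from pairs of a type I and a type II chain. Krt8 and Krt7 are type II chains, Krt18, Krt19 and Krt20 are type I chains, and Krt8 with Krt18 is the first pair made in the embryo. The cells are joined by adherens junctions, whose receptor is E-cadherin (Cdh1), and by desmosomes, where desmoplakin (Dsp) ties keratin filaments to the membrane. Epcam is a surface adhesion protein of epithelial cells, and Elf3 and Ehf are ETS transcription factors found mostly in epithelia. In a normal mouse pregnancy the uterine lining around the embryo is lost soon after attachment, and the stroma beneath it turns into decidua.

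Signals were the deposited MAS5 values, which have no absolute unit, and levels are compared within a probe set only. Changes are differences of log2(signal + 57.1) between groups, a scale that understates changes of dim genes. They were tested with limma over 22138 probe sets and called at an adjusted p under 0.05. Of the 18 probe sets, 15 passed the filter on low signals, and every gene was tested through its brightest probe set, called its lead. Krt20 passed the filter only on the 2 rat arrays of day 9, so the filter alone favours a change of Krt20 against that group. For this reason no test of Krt20 against those arrays is given in the text of these Results. Counts and medians there are over the other 9 genes. Only the sizes of its interaction terms are printed, among the results flagged for a closer look, where the count of cases includes Krt20. The other 9 lead probe sets passed it on at least 7 of the 11 other arrays. Genes of the marker and function lists used below were not checked in this way. Their counts against rat sites of day 9 may therefore include changes that the filter favours. Array medians ran from 141.4 to 204.6 after scaling to a trimmed mean of 500. The middle probe set for 18S ribosomal RNA read 6737.2 and 6209.4 on the rat arrays of day 9, and 522.4 to 1933.1 on the others. The signal ratio of 3' over 5' probe sets, a sign of RNA quality, ran opposite ways for 2 genes on the mouse arrays of day 7. For Gapdh it was 1.54 and 1.44 there, the lowest of the 13, against 2.56 to 4.07 elsewhere, and for Actb it was 3.47 and 3.71, the highest, against 2.36 to 3.34. Rat and mouse sites of day 7 were hybridised in 1 run, as were co-transfer and rat sites of day 9. In the other comparisons run and group cannot be told apart.

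Promoters were available for 7 of the 10 genes in RefSeq's annotation of the mouse build GRCm38.p6, as windows of 250 bases before to 50 after the start of transcription. Those of Krt8, Krt18, Epcam and Krt20 are shown, since the first 2 encode a filament pair, Epcam stood close to Cdh1 in its pattern, and Krt20 was bright in 1 group only. Krt8 lies on the minus strand at chr15:102004293-102004592 and Krt18 on the plus strand at chr15:102027966-102028265, with 2 annotated loci between the genes. Epcam lies on the plus strand of chr17:87635729-87636028 and Krt20 on the minus strand of chr11:99438104-99438403. Capitals mark the E-box CAGGTG on either strand (CACCTG on the other), which Snail and Zeb repressors are known to bind in the promoter of Cdh1.
Krt8: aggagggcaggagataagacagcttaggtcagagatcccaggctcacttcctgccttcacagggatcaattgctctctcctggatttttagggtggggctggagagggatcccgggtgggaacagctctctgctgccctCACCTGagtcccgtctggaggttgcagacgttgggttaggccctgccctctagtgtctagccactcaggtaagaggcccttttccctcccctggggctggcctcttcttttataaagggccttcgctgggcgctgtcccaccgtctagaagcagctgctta
Krt18: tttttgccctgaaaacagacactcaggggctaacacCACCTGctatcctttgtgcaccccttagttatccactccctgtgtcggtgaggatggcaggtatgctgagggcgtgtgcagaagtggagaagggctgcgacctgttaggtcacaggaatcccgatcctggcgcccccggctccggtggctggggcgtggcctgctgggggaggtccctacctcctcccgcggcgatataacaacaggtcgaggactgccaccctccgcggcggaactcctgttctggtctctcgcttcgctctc
Epcam: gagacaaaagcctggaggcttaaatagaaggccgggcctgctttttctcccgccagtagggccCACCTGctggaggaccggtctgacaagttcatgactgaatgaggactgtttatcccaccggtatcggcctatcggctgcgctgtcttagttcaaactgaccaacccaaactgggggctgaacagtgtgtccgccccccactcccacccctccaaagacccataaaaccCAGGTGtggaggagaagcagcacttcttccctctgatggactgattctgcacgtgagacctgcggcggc
Krt20: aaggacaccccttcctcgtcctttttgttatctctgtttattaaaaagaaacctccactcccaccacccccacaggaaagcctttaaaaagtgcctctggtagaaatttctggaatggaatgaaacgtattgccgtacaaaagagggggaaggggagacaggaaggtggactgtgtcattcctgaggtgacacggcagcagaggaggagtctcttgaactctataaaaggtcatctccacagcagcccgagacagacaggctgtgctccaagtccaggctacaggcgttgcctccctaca
These letters stood in 6 of the 7 windows, all but that of Krt20, and in 20.2% of the 32851 windows of all genes. The Epcam window held 2 of them, at 187 and 19 bases before the start. The ETS core AGGAAG, searched on both strands, stood in the windows of Krt7, Krt8 and Krt20, which is 3 of 7 against 35.4% of all windows. TATAAA stood in those of Krt8 and Krt20, 2 of 7 against 13.6% of all. The GC box GGGCGG stood in 3 of 7 against 35.7%, and the AP-1 letters TGANTCA in 0 of 7 against 7.81%. The TATAAA matches of Krt8, 1 on each strand, overlap each other, and no letters of 1 motif overlapped those of another in these 7 windows. A match of letters is a description only.

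**Figure D1:**
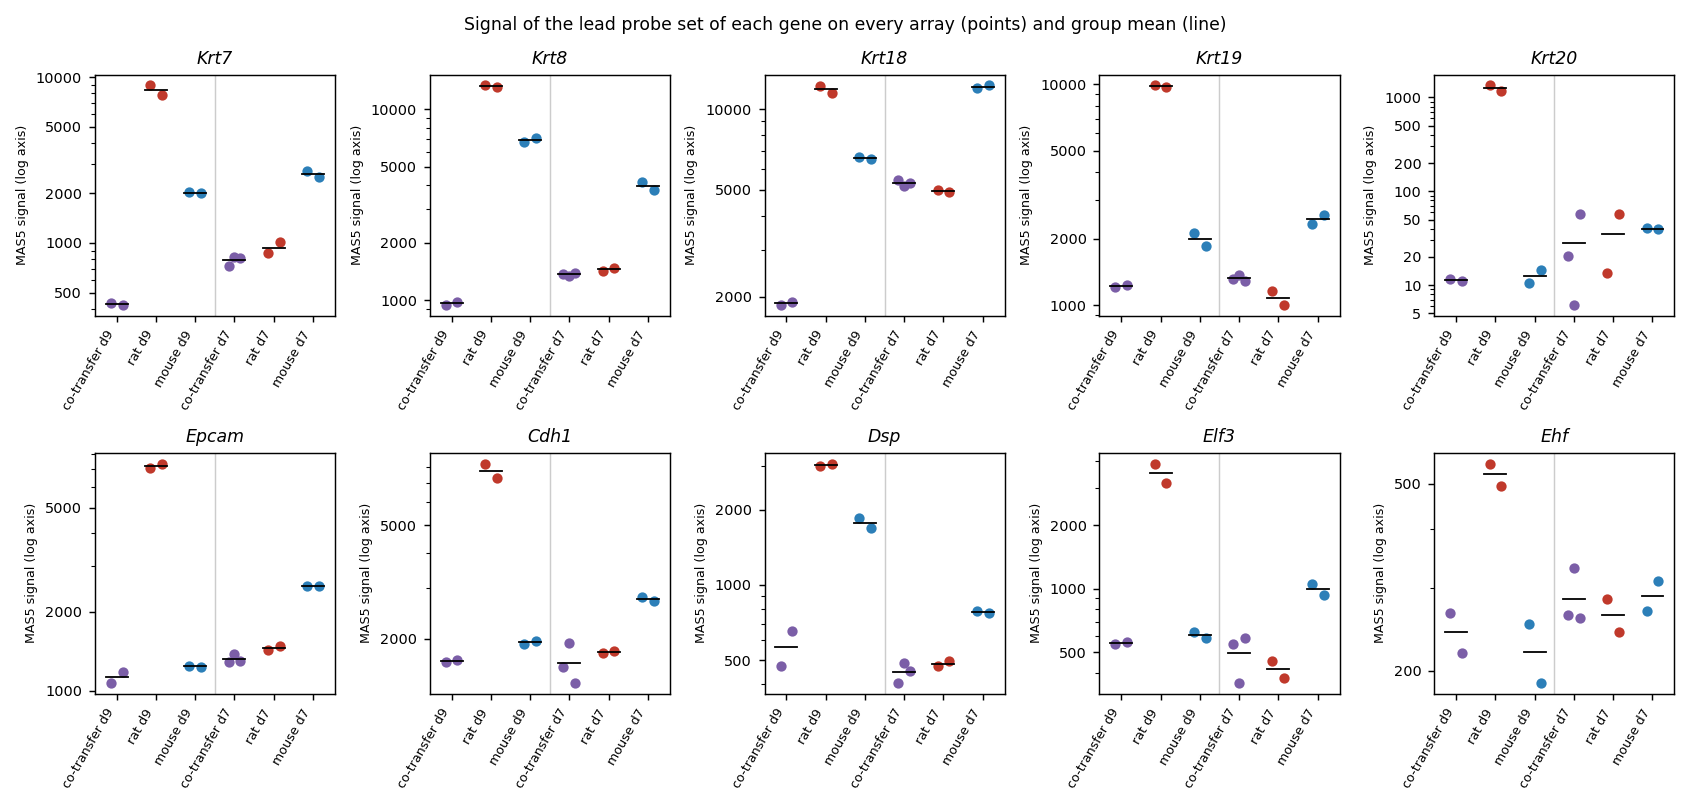
MAS5 signal of the lead probe set of each of the 10 genes (log axis) on every array, by group (d9, day 9; d7, day 7), with 2 arrays per group and 3 for co-transfer sites of day 7; lines are group means. Both rat arrays of day 9 lie above all others for every gene except Krt18, where mouse sites of day 7 reach 12250.6.

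The highest signals of 9 of the 10 genes were in rat sites of day 9, as the plot of signals by array shows. Krt18 was the exception: its rat arrays of day 9 and its mouse arrays of day 7 overlapped. The lowest group was the co-transfer sites of day 9 for Krt7, Krt8, Krt18 and Epcam. For Krt7, Krt8, Krt19 and Epcam no neighbouring groups in the order of levels overlapped. For Ehf each group below rat sites of day 9 overlapped the next, and for Krt20 likewise. For Cdh1, Dsp and Elf3 only groups in the lower part of the order overlapped.

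On day 9 the question is how a rat implantation site differs from a mouse one, and what a mouse embryo in the same uterus adds. The 9 genes other than Krt20 were all higher in rat than in mouse sites, and all 9 were lower in co-transfer than in rat sites. Among all probe sets tested, 31.5% were called between rat and mouse sites (17.1% higher in rat sites) and 33.7% between co-transfer and rat sites (18.1% lower in co-transfer sites). The median change of the 9 leads was 1.97 for rat over mouse sites, against 0.06 over all probe sets tested, and -2.61 for co-transfer over rat sites, against -0.07. Both comparisons share the rat arrays. Between co-transfer and mouse sites the genes split: Krt7, Krt8, Krt18, Krt19 and Dsp were lower in co-transfer sites, while Krt20, Epcam, Cdh1, Elf3 and Ehf were not called. There 7.72% of all probe sets were called and 3.77% were lower, and the median change of the 9 leads was -0.68, against 0.00 over all.

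Krt8 (lead probe set 1420647_a_at), the type II chain of the earliest keratin pair, had signals of 949.8 and 977.6 in co-transfer sites, 13339.9 and 13063.7 in rat sites and 6776.4 and 7068.5 in mouse sites. The groups stood well apart, with mouse sites between the others. Krt8 was 1.91-fold higher in rat than in mouse sites, a log2 change of 0.93 ± 0.08 (SE, adjusted p = 2.35e-05). It was 13.7-fold lower in co-transfer than in rat sites, a log2 change of -3.70 ± 0.08 (SE, adjusted p = 5.33e-09). Against mouse sites it was 7.18-fold lower in co-transfer sites, with a log2 change of -2.77 ± 0.08 (SE, adjusted p = 3.71e-08). The other Krt8 probe sets, 1423691_x_at and 1435989_x_at, gave 1.00 and 1.19 for rat over mouse sites and -2.67 and -2.91 for co-transfer over mouse sites. Their suffix marks probes that may also bind similar transcripts.

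Its partner Krt18 (1448169_at) had signals of 1870.1 and 1915.1 in co-transfer sites, 12219.0 and 11487.6 in rat sites and 6611.1 and 6547.2 in mouse sites, in the same order as Krt8. The log2 change was 0.84 ± 0.08 (SE, adjusted p = 3.27e-05) for rat over mouse sites, close in size to that of Krt8. For co-transfer over rat sites it was -2.61 ± 0.08 (SE, adjusted p = 2.72e-08), and for co-transfer over mouse sites -1.77 ± 0.08 (SE, adjusted p = 7.45e-07). Both changes of Krt18 against co-transfer sites were smaller than those of Krt8 by about 1 log2 unit.

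Krt7 (1423952_a_at), a type II chain of ducts, glands and trophoblast, had signals of 432.3 and 425.3 in co-transfer sites, 8890.7 and 7831.1 in rat sites and 2028.7 and 1996.7 in mouse sites. The co-transfer arrays were the lowest of the 13. Rat sites were 4.15-fold above mouse sites, with a log2 change of 2.02 ± 0.11 (SE, adjusted p = 7.07e-07). Co-transfer sites were 19.5-fold below rat sites, changing by -4.11 ± 0.11 (SE, adjusted p = 1.64e-08) on the log2 scale. They were 4.69-fold below mouse sites, with -2.09 ± 0.11 (SE, adjusted p = 2.42e-06).

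Krt19 (1417156_at), a short type I keratin of simple epithelia, had signals of 1205.3 and 1231.9 in co-transfer sites, 9878.4 and 9769.3 in rat sites and 2110.0 and 1858.8 in mouse sites. Here the mouse sites lay nearer to the co-transfer sites than to the rat sites. The log2 change was 2.28 ± 0.10 (SE, adjusted p = 1.82e-07) for rat over mouse sites and -2.95 ± 0.10 (SE, adjusted p = 4.36e-08) for co-transfer over rat sites. Co-transfer sites were lower than mouse sites by 1.63-fold, a log2 change of -0.68 ± 0.10 (SE, adjusted p = 0.00362). That last call was lost in a fit to the arrays of the comparison alone.

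Krt20 (1426284_at), a type I chain best known from the intestinal and bladder lining, was bright in 1 group. Its signals were 11.6 and 11 in co-transfer sites, 1339.7 and 1180.0 in rat sites and 10.6 and 14.4 in mouse sites. Outside rat sites of day 9 its highest array read 57.3, about the value of the pseudocount. The mean of the rat arrays was 22.1 times the pseudocount. Co-transfer and mouse sites were both below the pseudocount, so no fold between them is given.

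The adhesion genes had the same top group as the keratins. Epcam (1416579_a_at) read 1069.3 and 1175.1 in co-transfer sites, 7054.0 and 7345.9 in rat sites and 1245.3 and 1234.4 in mouse sites. The change of Epcam on the log2 scale was 2.48 ± 0.09 (SE, adjusted p = 3.94e-08) for rat over mouse sites and -2.62 ± 0.09 (SE, adjusted p = 3.74e-08) for co-transfer over rat sites. For co-transfer over mouse sites it was -0.14 (95% interval -0.33 to 0.06) and was not called. Its second probe set, 1447899_x_at, gave 1.87 for rat over mouse sites and 0.07 for co-transfer over mouse sites.

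Cdh1 (1448261_at) had signals of 1653.5 and 1687.2 in co-transfer sites, 8196.9 and 7331.8 in rat sites and 1916.0 and 1968.3 in mouse sites. Rat sites were 4.0-fold above mouse sites, with a log2 change of 1.97 ± 0.13 (SE, adjusted p = 3.07e-06). The log2 change of co-transfer over rat sites was -2.18 ± 0.13 (SE, adjusted p = 1.42e-06). The difference between co-transfer and mouse sites was -0.21 (95% interval -0.51 to 0.09) and was not called.

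Dsp (1435493_at), unlike Epcam and Cdh1, was called lower in co-transfer than in mouse sites. Its signals were 472.9 and 652.0 in co-transfer sites, 2986.1 and 3051.2 in rat sites and 1857.2 and 1687.2 in mouse sites. The log2 change was 0.75 ± 0.14 (SE, adjusted p = 0.00231) for rat over mouse sites and -2.33 ± 0.14 (SE, adjusted p = 1.11e-06) for co-transfer over rat sites. Co-transfer sites were 3.15-fold below mouse sites, a log2 change of -1.58 ± 0.14 (SE, adjusted p = 9.88e-05). The probe set 1435494_s_at gave 1.15 for rat over mouse, -3.08 for co-transfer over rat and -1.94 for co-transfer over mouse sites. The third Dsp probe set was too dim to be tested.

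Of the transcription factors, Elf3 (1416916_at) had signals of 547.9 and 561.8 in co-transfer sites, 3899.0 and 3177.9 in rat sites and 621.8 and 587.2 in mouse sites. Rat sites stood 5.85-fold above mouse sites, a log2 change of 2.44 ± 0.20 (SE, adjusted p = 9.65e-06). For co-transfer over rat sites the log2 change was -2.55 ± 0.20 (SE, adjusted p = 7.06e-06). Between co-transfer and mouse sites the change was -0.11 (95% interval -0.55 to 0.33) and was not called. Ehf (1451375_at) had the smallest change of the 9 between co-transfer and rat sites, with signals of 265.1 and 217.9 in co-transfer sites, 552.1 and 496.3 in rat sites and 251.1 and 188.4 in mouse sites. Its log2 change was 1.08 ± 0.16 (SE, adjusted p = 0.000524) for rat over mouse sites and -0.96 ± 0.16 (SE, adjusted p = 0.001) for co-transfer over rat sites, and it was not called between co-transfer and mouse sites. A second tested Ehf probe set, 1447760_x_at, was not called in any of the 12 comparisons and gave -0.44 for rat over mouse sites, against the lead. The remaining 2 Ehf probe sets were too dim to be tested.

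**Figure D2:**
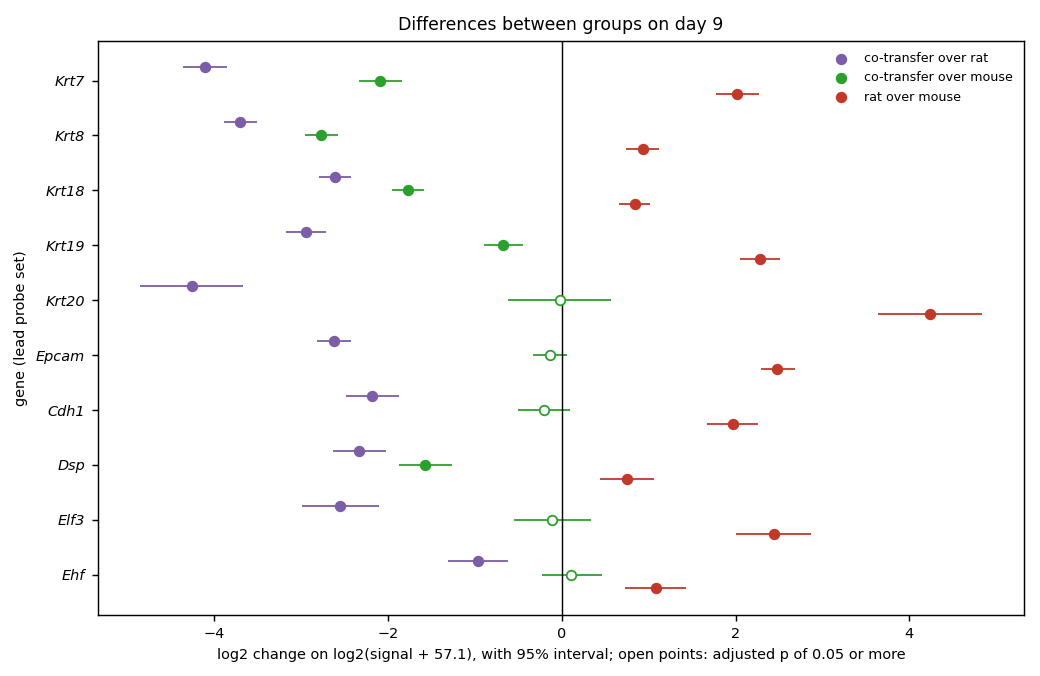
Log2 change of each lead probe set on day 9 for co-transfer over rat, co-transfer over mouse and rat over mouse sites, with limma's 95% interval; filled points were called. The 9 genes other than Krt20, whose points against rat sites follow from the filter, lie right of 0 for rat over mouse and left of 0 for co-transfer over rat sites, while co-transfer over mouse sites splits the genes, with Krt8 at -2.77 and Epcam at -0.14.

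The plot of day 9 changes shows that split. Markers of other tissues moved on the same arrays. The summed signal of 7 markers of the luminal epithelium, the lining of the uterine cavity (Muc1, Wnt7a, Wnt7b, Calb1, Ltf, Sprr2f and Lpar3), was 2711 to 3414 in co-transfer sites, 34380 to 35740 in rat sites and 4586 to 4948 in mouse sites. No marker of that list lay below the pseudocount in rat sites, and Muc1 and Lpar3 did in co-transfer sites. Most of the rat sum was Sprr2f, at 1522 ± 35.3 in co-transfer sites, 23000 ± 569 in rat sites and 1718 ± 37.0 in mouse sites (SD, n = 2 each). Of 6 tested, 5 were called higher and 0 lower in rat than in mouse sites, against 31.5% of all probe sets called. In co-transfer sites 5 were lower and 0 higher than in rat sites, against 33.7% called. Wnt7a was called in neither comparison. Muc1, called in both, had a mean of 2518 in rat sites of day 9 and at most 171.1 in any other group. The filter may thus favour its change against that group. The 6 markers of uterine glands summed to 29560 to 32050 in co-transfer sites, 46490 to 46580 in rat sites and 7421 to 8383 in mouse sites. Of the 4 gland markers tested, 4 were called higher in rat than in mouse sites, against 31.5% of all probe sets called. For co-transfer over rat sites 0 were higher and 3 lower, against 33.7% called. Prss28, Prss29 and Spink1 were called higher in co-transfer than in mouse sites, against 7.72% called, and Wfdc2 was not called, at 0.18. Trophoblast, the embryo's outer layer, and visceral endoderm, which covers the embryo in the yolk sac, also make simple keratins. The trophoblast sum, of 7 markers measured of 11, was 2138 to 2158 in co-transfer sites, 1352 to 1635 in rat sites and 24360 to 27160 in mouse sites. The visceral endoderm sum, of 8 markers, was 589.6 to 697.1 in co-transfer sites, 993.4 to 1177 in rat sites and 20020 to 20120 in mouse sites. Both were highest in mouse sites. Ascl2 and Prl4a1 among trophoblast markers, and Apoa4, Cubn and Foxa3 among endoderm markers, lay below the pseudocount in co-transfer sites. The part of any of these tissues, or of the high 18S signal of the rat arrays, in the changes of the 10 genes was not tested.

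**Figure D3:**
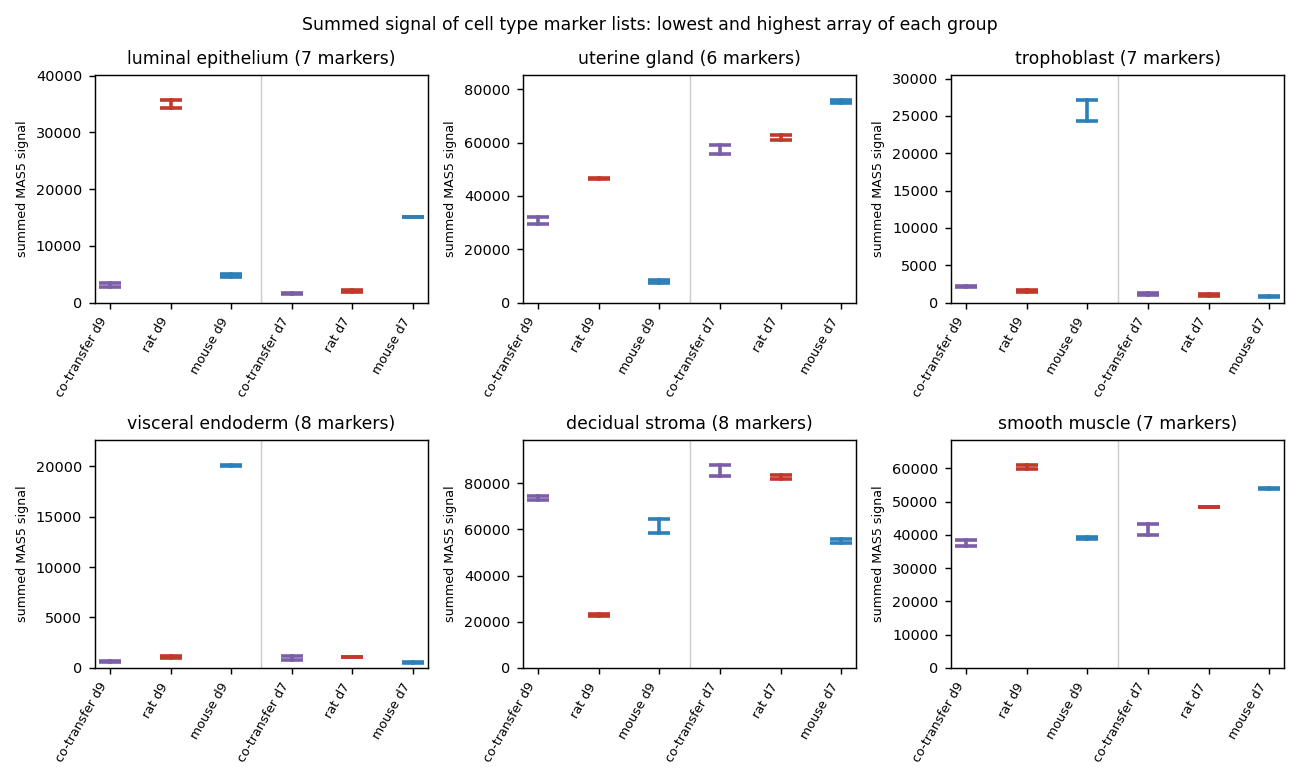
Summed MAS5 signal (linear axis) of 6 cell type marker lists, drawn from the lowest to the highest array of each group. Luminal markers are highest in rat sites of day 9, trophoblast and visceral endoderm markers in mouse sites of day 9, and decidual markers lowest in rat sites of day 9.

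As the plot of marker sums shows, 8 decidual stroma markers were 72660 to 74420 in co-transfer sites, 22480 to 23220 in rat sites and 58470 to 64560 in mouse sites of day 9. The 7 smooth muscle markers were 36610 to 38480 in co-transfer sites, 59880 to 60920 in rat sites and 38590 to 39320 in mouse sites. The 6 mesothelial markers, of the outer surface of the uterus, were 6515 to 7027 in co-transfer sites, 2602 to 2649 in rat sites and 5068 to 5543 in mouse sites. Mesothelium also carries simple keratins. Most of that sum was Wt1, at 5889 ± 305 in co-transfer sites, 1670 ± 125 in rat sites and 3503 ± 496 in mouse sites (SD, n = 2 each), and Wt1 is also made by decidual stroma. Of 5 mesothelial markers tested, 0 were higher and 4 lower in rat than in mouse sites, against 31.5% of all probe sets called. For co-transfer over rat sites 1 was higher (Wt1) and 1 lower (Upk1b), a share near the 33.7% of all probe sets.

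On day 7 the direction was the other way round. Krt7, Krt8, Krt18, Krt19, Epcam, Cdh1, Dsp and Elf3 were lower in rat sites than in mouse sites, and the same 8 genes were lower in co-transfer sites than in mouse sites. Krt20 and Ehf were not called in either comparison. Of all probe sets, 24.4% were called between rat and mouse sites (11.4% lower) and 31.2% between co-transfer and mouse sites (14.2% lower). The median change of the 9 leads other than Krt20 was -1.14 for rat over mouse sites, against 0.03 over all, and -0.90 for co-transfer over mouse sites, against 0.05. Between co-transfer and rat sites none of the 10 was called, at a background of 0.967%, and at an unadjusted p under 0.05 the count was 2, Krt7 and Krt19. The limits of those 10 intervals all lay within 1 log2 unit of 0.

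Krt7 showed the largest difference, with signals of 723.3, 828.9 and 814.7 in co-transfer sites, 869.5 and 1006.9 in rat sites and 2721.7 and 2484.6 in mouse sites. Co-transfer sites were 3.3-fold below mouse sites, or -1.65 ± 0.10 (SE, adjusted p = 4.77e-06) on the log2 scale. Rat sites were 2.77-fold below mouse sites, with -1.42 ± 0.11 (SE, adjusted p = 2.97e-05). Krt8 read 1374.2, 1333.7 and 1398.5 in co-transfer sites, 1430.6 and 1474.4 in rat sites and 4161.3 and 3799.0 in mouse sites. On the log2 scale Krt8 changed by -1.50 ± 0.08 (SE, adjusted p = 1.83e-06) for co-transfer over mouse sites and -1.42 ± 0.08 (SE, adjusted p = 6.16e-06) for rat over mouse sites. The 3 Krt8 probe sets gave -1.42, -1.37 and -1.60 for rat over mouse sites.

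Krt18 read 5467.2, 5176.9 and 5301.5 in co-transfer sites, 4977.2 and 4897.2 in rat sites and 11985.5 and 12250.6 in mouse sites, so the mouse arrays stood clear of all others of that day. For Krt18 the change was -1.18 ± 0.07 (SE, adjusted p = 5.39e-06) for co-transfer over mouse sites and -1.29 ± 0.08 (SE, adjusted p = 8.44e-06) for rat over mouse sites. Krt19 read 1312.5, 1363.2 and 1290.5 in co-transfer sites, 1157.2 and 1004.3 in rat sites and 2339.6 and 2564.4 in mouse sites, and the log2 change was -0.86 ± 0.09 (SE) for co-transfer over mouse sites and -1.14 ± 0.10 for rat over mouse sites. Between co-transfer and rat sites Krt19 differed by 0.28 (95% interval 0.07 to 0.49), the largest such difference among the keratins. Krt20 had signals of 20.3, 6.2 and 56.9 in co-transfer sites, 13.5 and 57.3 in rat sites and 40.5 and 39.3 in mouse sites, all dim and overlapping.

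Among the adhesion genes, Epcam read 1285.4, 1384.6 and 1295.2 in co-transfer sites, 1423.1 and 1481.9 in rat sites and 2513.7 and 2510.4 in mouse sites. Epcam changed by -0.90 ± 0.08 (SE, adjusted p = 4.1e-05) for co-transfer over mouse sites and -0.77 ± 0.09 (SE, adjusted p = 0.000249) for rat over mouse sites. Cdh1 was at 1592.9, 1933.6 and 1398.1 in co-transfer sites, 1786.6 and 1805.6 in rat sites and 2789.8 and 2710.8 in mouse sites. The changes of Cdh1 were smaller, -0.74 ± 0.12 (SE) for co-transfer over mouse sites and -0.60 ± 0.13 for rat over mouse sites. Dsp was at 405.3, 487.3 and 450.7 in co-transfer sites, 472.3 and 495.4 in rat sites and 785.8 and 774.5 in mouse sites, with changes of -0.73 ± 0.13 (SE) for co-transfer over mouse sites and -0.63 ± 0.14 for rat over mouse sites. The call of Cdh1 between rat and mouse sites was lost without replicate 1 of the mouse sites (-0.58) or replicate 1 of the rat sites (-0.59), and that of Dsp without replicate 1 of the rat sites (-0.60).

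Elf3 read 549.4, 358.9 and 584.0 in co-transfer sites, 456.1 and 378.9 in rat sites and 1056.1 and 938.8 in mouse sites, and both mouse arrays were above all the others. Its log2 change was -0.95 ± 0.18 (SE, adjusted p = 0.0033) for co-transfer over mouse sites and -1.15 ± 0.20 (SE, adjusted p = 0.00241) for rat over mouse sites. Ehf read 263.5, 331.3 and 259.1 in co-transfer sites, 285.0 and 241.9 in rat sites and 267.5 and 310.8 in mouse sites, and the groups overlapped. Ehf changed by -0.02 (95% interval -0.34 to 0.29) for co-transfer over mouse sites and by -0.11 (95% interval -0.46 to 0.24) for rat over mouse sites.

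**Figure D4:**
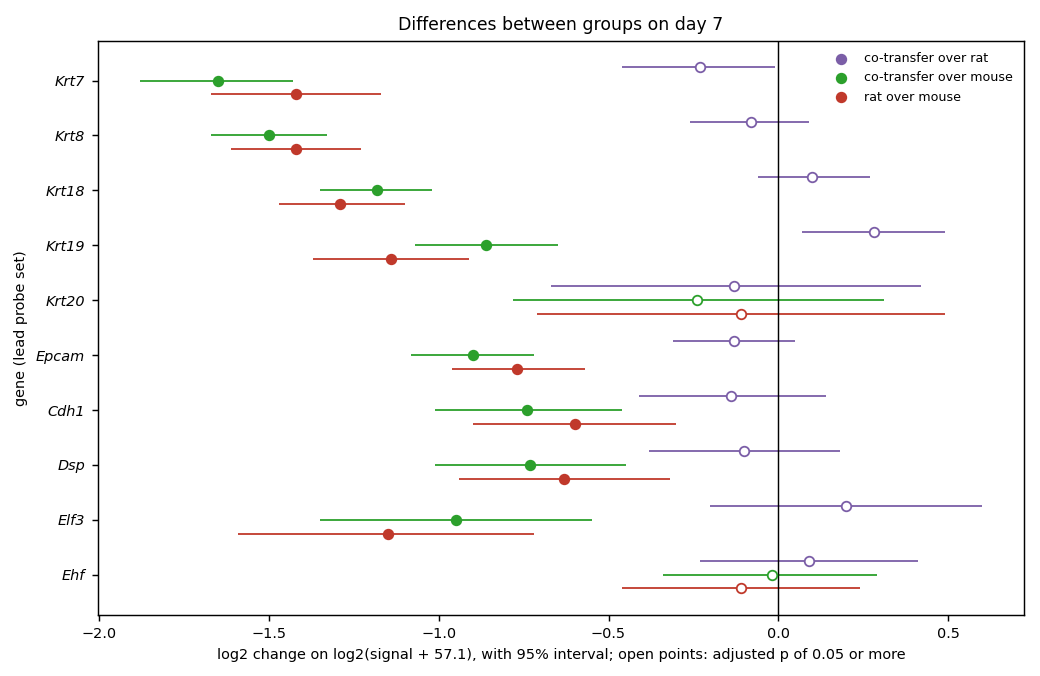
Log2 change of each lead probe set on day 7 for co-transfer over rat, co-transfer over mouse and rat over mouse sites, with limma's 95% interval; filled points were called. Both contrasts with mouse sites lie left of 0 for 8 genes, and co-transfer over rat sites lies between -0.23 and 0.28, with no gene called.

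The plot of day 7 changes shows both contrasts with mouse sites on the same side of 0 for those 8 genes. They share the mouse arrays, and these arrays also had the lowest Gapdh and the highest Actb ratios given above. Luminal markers summed to 1512 to 1691 in co-transfer sites, 1868 to 2177 in rat sites and 15100 to 15140 in mouse sites, with Lpar3 below the pseudocount in every group of day 7. Most of the mouse sum was Sprr2f, a small proline-rich protein of the lining, at 371.2 ± 81.0 in co-transfer sites, 907.6 ± 47.2 in rat sites and 12210 ± 331 in mouse sites (SD, n = 3, 2 and 2). Of 6 luminal markers tested, 0 were called higher and 3 lower in rat than in mouse sites, against 24.4% of all probe sets called. Between co-transfer and mouse sites 1 was higher (Wnt7b, at 0.66) and 3 were lower, against 31.2% called. Gland markers summed to 55730 to 59220 in co-transfer sites, 61150 to 63010 in rat sites and 74940 to 76040 in mouse sites. Trophoblast markers summed to 1001 to 1337 in co-transfer sites, 943.5 to 1134 in rat sites and 773.2 to 939 in mouse sites. For visceral endoderm the sums were 806.8 to 1195 in co-transfer sites, 1052 to 1062 in rat sites and 499.8 to 535.7 in mouse sites. Limma called 0 of the 5 trophoblast markers tested on day 7 between rat and mouse sites or between co-transfer and mouse sites, with 1 at an unadjusted p under 0.05 in each comparison. Of the 7 visceral endoderm markers tested, 1 (Ttr) was called in each, higher than in mouse sites. The 8 decidual stroma markers summed to 83280 to 87820 in co-transfer sites, 81830 to 83680 in rat sites and 54180 to 55810 in mouse sites. The part of these tissues or of RNA quality in the day 7 differences was not tested.

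Between the days the embryo types went separate ways. In co-transfer sites 3 genes fell by day 9 (Krt7, Krt8 and Krt18), 0 rose and 7 were not called, at a background of 25.2% called (14.4% lower). In rat sites all 9 genes other than Krt20 rose, at a background of 39.3% (20.1% higher), with a median of 2.51 against 0.03 over all. In mouse sites 2 rose (Krt8 and Dsp), 6 fell (Krt7, Krt18, Krt19, Epcam, Cdh1 and Elf3) and 2 were not called, at a background of 44.2% (21.9% higher and 22.3% lower). The median of the 9 was -0.19 in co-transfer sites, against -0.04 over all probe sets, and -0.36 in mouse sites, against 0.02.

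In rat sites the log2 change of day 9 over day 7 was 3.13 ± 0.08 (SE, adjusted p = 1.44e-08) for Krt8. It was 3.12 ± 0.10 (SE) for Krt19, 3.08 ± 0.11 for Krt7 and 1.25 ± 0.08 for Krt18, the smallest of these 4 keratins. Elf3 rose by 2.92 ± 0.20, Dsp by 2.51 ± 0.14, Epcam by 2.27 ± 0.09 and Cdh1 by 2.08 ± 0.13. Ehf rose by 0.86 ± 0.16 (SE, adjusted p = 0.00189), the smallest change of the 9.

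In mouse sites the keratin pair parted: Krt8 rose by 0.79 ± 0.08 (SE, adjusted p = 7.87e-05), while Krt18 changed by -0.88 ± 0.08 (SE, adjusted p = 3.16e-05). All 3 Krt8 probe sets rose, with 0.82 and 0.79 for the other 2. Dsp rose by 1.13 ± 0.14 (SE, adjusted p = 0.000175), and Epcam changed by -0.99 ± 0.09 (SE, adjusted p = 2.31e-05). The falls of Elf3 (-0.67 ± 0.20, SE), Cdh1 (-0.49 ± 0.13), Krt7 (-0.36 ± 0.11) and Krt19 (-0.30 ± 0.10) were smaller. Each of these 4 calls was lost when some single mouse array was left out. Leaving out replicate 1 of day 7, Krt7 was at -0.30, Krt19 at -0.36, Cdh1 at -0.47 and Elf3 at -0.59. Leaving out replicate 2 of day 9, these were -0.35, -0.21, -0.51 and -0.63. Either omission reduced the called probe sets of the 10 genes to 7, against 11 with all arrays. Without replicate 1 of day 9, Krt7 (-0.37), Cdh1 (-0.47) and Elf3 (-0.71) lost their calls, and without replicate 2 of day 7 Krt19 (-0.23) and Cdh1 (-0.51) did.

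In co-transfer sites Krt18 had the largest change, -1.46 ± 0.07 (SE, adjusted p = 1.11e-06), which is a 2.81-fold fall. Krt7 changed by -0.80 ± 0.10 (SE, adjusted p = 0.000385) and Krt8 by -0.48 ± 0.08 (SE, adjusted p = 0.00152). For the other Krt8 probe sets the mean signal went from 882.9 to 769.0 (1423691_x_at) and from 909.2 to 643.2 (1435989_x_at). Among all probe sets of the 10 genes 4 were called lower, so not every Krt8 probe set was called. The other genes were not called, among them Krt19 at -0.11 (95% interval -0.32 to 0.10) and Cdh1 at 0.04 (95% interval -0.24 to 0.31). Dsp, at 0.28 (95% interval 0.00 to 0.56), passed the test only without replicate 1 of day 9, at 0.49. Its probe set 1435494_s_at went the other way, with a mean signal of 413.9 on day 7 and 383.4 on day 9.

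**Figure D5:**
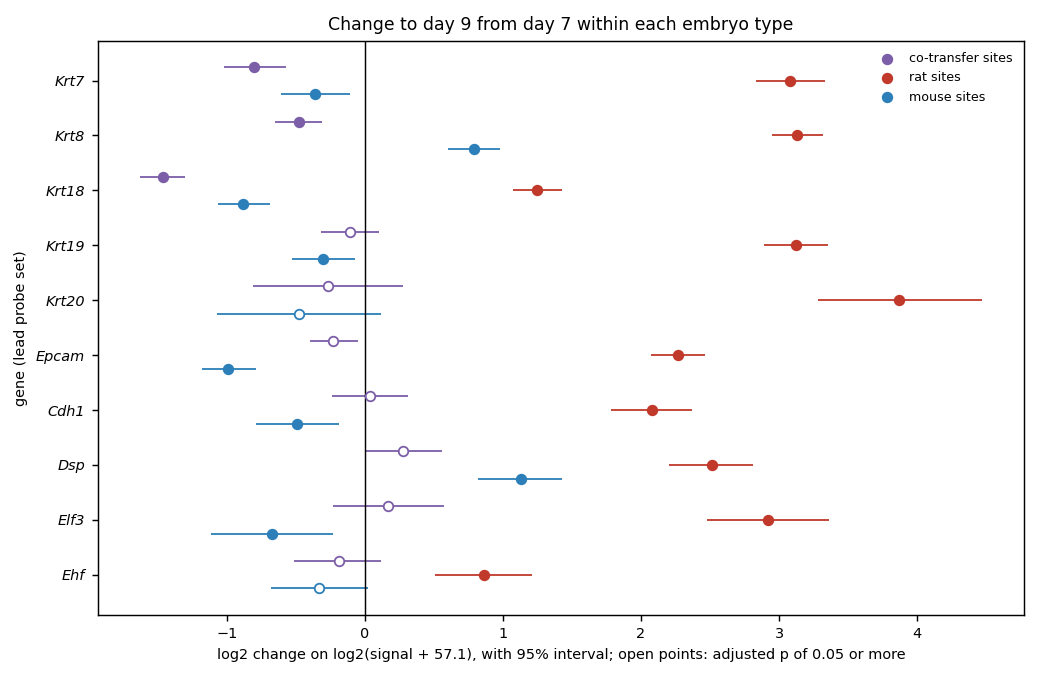
Log2 change of day 9 over day 7 for each lead probe set in co-transfer, rat and mouse sites, with limma's 95% interval; filled points were called. The rat points of the 9 genes other than Krt20 lie right of 0, and Krt8 and Dsp lie right of 0 in mouse sites while Krt18 and Epcam lie left of it.

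These day changes, set out in the plot of changes between days, were compared directly through interaction terms. The difference between rat and mouse sites was more positive on day 9 than on day 7 for all 9 genes other than Krt20, at a background of 32.6% called and 16.5% higher, with a median of 2.56 against 0.00. The difference between co-transfer and rat sites was more negative on day 9 for the same 9, at 26.1% and 13.7%, with a median of -2.72 against -0.08. For co-transfer against mouse sites the term was negative for Krt8, Krt18 and Dsp, positive for Epcam and not called for 6 genes, at a background of 18.8% (9.04% positive and 9.77% negative). Krt8 had -1.27 ± 0.11 (SE, adjusted p = 9.98e-05), Krt18 -0.59 ± 0.11 (SE, adjusted p = 0.00609), Dsp -0.84 ± 0.19 (SE, adjusted p = 0.0133) and Epcam 0.76 ± 0.12 (SE, adjusted p = 0.00241). Elf3, at 0.84 (95% interval 0.25 to 1.43), was not called, but was called without replicate 2 (0.64) or replicate 3 (0.96) of the co-transfer sites of day 7. Cdh1, at 0.53, was called without that replicate 2, at 0.65.

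Genes of the same functions that are not among the 10 were described through lists, each through 1 probe set per gene. Their counts stand against the shares of all probe sets called, which on day 9 were 31.5% for rat over mouse, 33.7% for co-transfer over rat and 7.72% for co-transfer over mouse sites, and on day 7 were 24.4% for rat over mouse, 0.967% for co-transfer over rat and 31.2% for co-transfer over mouse sites. The medians over all probe sets of day 9 were 0.06 for rat over mouse, -0.07 for co-transfer over rat and 0.00 for co-transfer over mouse sites. The epithelial surface list had 13 tested genes of 18. On day 9, 12 were higher and 0 lower in rat than in mouse sites, with a median change of 2.01, and 13 were lower in co-transfer than in rat sites, with a median of -1.84. Muc1, a mucin of the uterine lining that also stands in the luminal list, was at 29.8 ± 0.141 in co-transfer sites, 2518 ± 373 in rat sites and 76.95 ± 16.5 in mouse sites (SD, n = 2 each). Lamb3, a laminin chain of epithelial basement membranes, changed by 2.84 ± 0.23 (SE, adjusted p = 1.03e-05) for rat over mouse sites and -2.93 for co-transfer over rat sites. Rab25, a small GTPase of epithelial vesicle traffic, changed by 2.70 ± 0.30 (SE, adjusted p = 8.86e-05) for rat over mouse sites and -2.85 for co-transfer over rat sites. Between co-transfer and mouse sites 1 gene was higher, the surface glycoprotein gene Cd24a, at 0.86. The 3 lower ones included Prss8, a membrane serine protease, at -0.89, and Ap1m2, an adaptor of epithelial protein sorting, at -0.68. On day 7, 1 was higher and 5 lower in rat than in mouse sites, and 3 higher and 4 lower in co-transfer than in mouse sites.

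Other desmosome genes followed Dsp in part. Of 9 tested genes of 14, 0 were higher and 4 lower in co-transfer than in mouse sites of day 9, with a median of -0.64. These included the plakophilins Pkp2 and Pkp3, which link desmosomal cadherins to Dsp, and the desmosomal cadherin Dsg2. Pkp2 was at 312.7 ± 22.8 in co-transfer sites, 1552 ± 186 in rat sites and 1049 ± 116 in mouse sites (SD, n = 2 each), a log2 change of -1.58 ± 0.11 (SE, adjusted p = 2.2e-05) for co-transfer over mouse sites. Pkp3 changed by -1.31 ± 0.12 (SE, adjusted p = 0.000144) and Dsg2 by -1.12 ± 0.09 (SE, adjusted p = 3.37e-05) in that comparison. For co-transfer over rat sites 1 was higher and 6 were lower, with Pkp2 at -2.12, Dsg2 at -1.76 and Pkp3 at -1.51. For rat over mouse sites 4 were higher and 1 was lower, with Evpl (envoplakin) at 1.29 and Pkp4 at 0.77. The mean of Evpl was 380.5 in rat sites of day 9 and at most 167.0 in any other group. The filter may thus favour its change against rat sites of day 9. The gene that was lower was Perp, a desmosomal membrane protein, at -0.67. On day 7, 2 were higher and 5 lower in rat than in mouse sites, and 2 higher and 3 lower in co-transfer than in mouse sites, with Ppl at 1.08 and Pkp2 at -0.63.

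Junction and polarity genes were 18 tested of 20. For rat over mouse sites of day 9, 9 were higher and 2 lower, with a median of 0.51. For co-transfer over rat sites 3 were higher and 10 lower, with a median of -0.59, and for co-transfer over mouse sites 0 were higher and 1 was lower. The largest change ran against Cdh1: Cdh3, the P-cadherin of placenta and basal epithelia, was at 1988 ± 543 in co-transfer sites, 123.5 ± 33.0 in rat sites and 1608 ± 8.13 in mouse sites (SD, n = 2 each). Its log2 change was -3.22 ± 0.18 (SE, adjusted p = 8.12e-07) for rat over mouse sites and 3.49 ± 0.18 (SE, adjusted p = 4.5e-07) for co-transfer over rat sites. Lsr, a protein of junctions where 3 cells meet, changed by 1.71 for rat over mouse sites, -2.74 for co-transfer over rat sites and -1.03 for co-transfer over mouse sites. Tjp3, a tight junction scaffold, changed by 1.63 for rat over mouse sites and -2.01 for co-transfer over rat sites. On day 7, 1 was higher and 2 were lower in rat than in mouse sites, with Cgn, a tight junction protein, at 0.83 and Tjp3 at -0.67.

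Other keratins were mostly dim, with 8 tested of 18. For rat over mouse sites of day 9, 3 were higher and 2 lower, and for co-transfer over rat sites 1 was higher and 3 were lower. Krt12, a type I keratin best known from the cornea, had 87.85 ± 1.06 in co-transfer sites, 941.4 ± 64.6 in rat sites and 80.4 ± 15.1 in mouse sites (SD, n = 2 each). It changed by 2.86 ± 0.18 (SE, adjusted p = 1.63e-06) for rat over mouse sites of day 9 and by -1.21 ± 0.18 (SE, adjusted p = 0.00108) on day 7, the same directions as Krt8. Krt23, another type I keratin, went the other way, with -0.85 on day 9 and 1.06 on day 7. Between co-transfer and mouse sites of day 9, 0 were higher and 1 was lower, Krt80, at -0.41.

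Regulators of epithelial genes did not move as a block: of 11 tested of 18, 4 were higher and 3 lower for rat over mouse sites of day 9, and 4 were higher and 4 lower for co-transfer over rat sites. Esrp1, a splicing factor of epithelial cells, was at 235.5 ± 55.9 in co-transfer sites, 1459 ± 21.5 in rat sites and 356.1 ± 14.5 in mouse sites (SD, n = 2 each), a log2 change of 1.88 ± 0.23 (SE, adjusted p = 0.000206) for rat over mouse sites. Tfap2c, a factor of trophoblast and other ectodermal cells, went the other way, with -2.13 ± 0.21 (SE, adjusted p = 3.54e-05) for rat over mouse sites and 2.01 for co-transfer over rat sites. For co-transfer over mouse sites 1 was higher and 1 lower. Klf5 changed by 1.07 ± 0.11 (SE, adjusted p = 0.000352), and Grhl2, a grainyhead factor that keeps epithelial junction genes on, by -1.25 ± 0.15 (SE, adjusted p = 0.000831). On day 7 limma called 0 between rat and mouse sites, with 1 at an unadjusted p under 0.05, and 1 higher and 1 lower between co-transfer and mouse sites.

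Known repressors of epithelial genes and mesenchymal genes were 9, all tested. For rat over mouse sites of day 9, 2 were higher and 2 lower, a share near the 31.5% of all probe sets. These were Twist2 at 1.16, Fn1 (fibronectin) at 1.07, Zeb2 at -0.92 and Cdh2 (N-cadherin) at -0.56. Binding of Zeb2 to the promoters printed above was not measured. For co-transfer over rat sites 1 was higher and 3 were lower, again near the 33.7% of all, with 1.10 for Zeb2, -1.01 for Fn1, -1.12 for Twist2 and -0.66 for Twist1. Limma called 0 of the 9 between co-transfer and mouse sites, with 2 at an unadjusted p under 0.05. Between co-transfer and rat sites of day 7, 0 of the 68 tested genes of these 6 lists were called by limma, and 13 had an unadjusted p under 0.05.

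Genes with the pattern most like each member were found by Pearson's r of log2 signal over the 13 arrays, among 11993 other genes tested. These points share their groups, and the rat arrays of day 9 weigh heavily on each r, so the values are descriptions. Dsp was most like its desmosome partner Dsg2 (r = 0.993), followed by the chemokine Ccl8 (0.984) and Pkp3 (0.977). Krt18 was most like Pkp2 (0.979), then Pawr (0.959) and Cilp (0.953). Epcam was most like Smim22 (0.995), Atp10b (0.986) and the chloride channel Cftr (0.984), and Cdh1 like Tmcc3 (0.987), Mmp3 (0.983) and Gcnt2 (0.982). For Krt8 the closest were lipoprotein lipase Lpl (0.987), Ms4a4d (0.981) and Ctsh (0.980). Krt19 was closest to carbonic anhydrase Car2 (0.986), Calb1 (0.984) and Fxyd4 (0.982), and Krt7 to Lgr6 (0.963), Calb1 (0.959) and Hsd17b11 (0.957). For Krt20 the closest were Clca1 (0.982), Ifitm3 (0.982) and Ddit4l (0.976). Elf3 was closest to Slc44a4 (0.982), Cxcl2 (0.982) and Irf1 (0.980), and Ehf to Pigr (0.954), Gsto1 (0.947) and Col4a4 (0.941).

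Among the 10 genes themselves, r between lead probe sets lay between 0.54 and 0.98 over the 13 arrays, with a median of 0.87. Without the 2 rat arrays of day 9 it lay between -0.48 and 0.91 over 11 arrays, with a median of 0.54. Krt7 with Krt8 (0.91), Krt7 with Krt18 (0.91), Krt8 with Dsp (0.90) and Epcam with Cdh1 (0.87) were the closest pairs there. Epcam with Dsp had 0.05 and Dsp with Ehf -0.48, so the genes formed no single pattern outside that group. The range and median over the 11 arrays include Krt20, whose highest signal there was 57.3, about the value of the pseudocount.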

How the data were processed

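The authors deposited 1 linear intensity per probe set, made with MAS5 per the submitters' processing notes. The version of MAS5 and a genome build are not given in the sources used here. Per the labels' protocols, TRIzol and RNeasy were used on about 100 mg of tissue, and about 8 µg of RNA was labelled. The instrument settings deposited with the arrays, read as text, gave 4 hybridisation runs, a new run being taken to start after a gap of more than 30 minutes, and 2 dates and scanners.

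A pseudocount of 57.1, the 25th percentile of all values, was added before log2. Outside 64 control probe sets, tests were run on probe sets that exceeded their array's 60th percentile on 2 or more arrays, 22138 in all. A mean per group was estimated from the 13 arrays together by limma 3.58.1 (lmFit, eBayes) in R 4.3.3, with 7 residual and 2.71 prior degrees of freedom and Benjamini-Hochberg adjustment within each of 12 comparisons. The number of arrays limits the precision. Whether a group's arrays stem from different animals is not stated in the labels, so p-values reflect spread that may be technical. On simulated data for rat against mouse sites of day 9, 55 of 100 changes of 1 log2 unit and 90 of 100 of 2 units were called, with 8 false calls among 22138 probe sets. Only those changed probe sets differed between groups there, while 31.5% were called in the real comparison. The adjusted p depends on that share, so the recovery does not carry over to the real tests.

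The members and lists were chosen with earlier results of these data known. All probe sets of the 10 genes were named, with the lead chosen by mean log2 signal, the 3 most alike genes, and up to 3 called genes of the largest change per list and comparison within a day. Cdh2 and Twist1, and marker genes named beside their sums, fall outside this rule and were chosen after their values were seen. Alternatives were other pseudocounts, no filter, quantile normalization, replicate, date and run blocks, fits to the compared arrays alone, and leaving out each array.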

Additional observations from a re-analysis of the deposited data

Results flagged for a closer look

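A difference between 2 kinds of site changed between day 7 and day 9, by limma's interaction test, in 24 cases over the 10 genes. This count includes the terms of Krt20 against rat sites, which are built in by the filter. They are given below as sizes only, not as evidence of a change. All terms are log2 values on day 9 minus day 7. Of all probe sets tested, 32.6% were called for rat over mouse, 26.1% for co-transfer over rat and 18.8% for co-transfer over mouse sites. For rat over mouse sites the term was 3.44 for Krt7, 2.34 for Krt8, 2.13 for Krt18, 3.42 for Krt19 and 4.35 for Krt20. It was 3.25 for Epcam, 2.56 for Cdh1, 1.38 for Dsp, 3.59 for Elf3 and 1.19 for Ehf. For co-transfer over rat sites it was -3.88 for Krt7, -3.62 for Krt8, -2.72 for Krt18, -3.23 for Krt19 and -4.14 for Krt20. There Epcam had -2.49, Cdh1 -2.04, Dsp -2.22, Elf3 -2.75 and Ehf -1.05. Both sets share the rat arrays. The terms of Krt20 also depend on the pseudocount, since its signals outside rat sites of day 9 were at or below it. For co-transfer over mouse sites the term was -1.27 for Krt8, -0.59 for Krt18, -0.84 for Dsp and 0.76 for Epcam. The groups of 2 or 3 arrays were too small for a test of single outlying arrays.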

How the results depend on the processing

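Of 151 recomputed counts of called probe sets among those of the 10 genes, 149 were within 1.5 times the value with all arrays. The exceptions were in mouse sites, day 9 over day 7, where leaving out each array in turn gave between 7 and 10 calls, against 11. Leaving out each array, other counts ranged from 11 to 12 for co-transfer over mouse sites of day 7 and 9 to 12 for rat over mouse sites of day 7. They ranged from 3 to 4 for co-transfer sites between days and from 7 to 9 for the interaction of co-transfer over mouse sites. Of 1510 recomputed gene results, 1456 kept their direction and side of the threshold, 24 lost a call and 11 gained one. Another 19 changed sign, each uncalled with all arrays and chosen settings. Leaving out each array in turn, Krt20 ran from -0.46 to 0.24 for rat over mouse sites of day 7, from -0.47 to 0.22 for co-transfer over rat sites of day 7 (0.06 was another positive value), and from -0.06 to 0.01 for co-transfer over mouse sites of day 9, where quantile normalization also gave 0.01. Ehf ran from -0.12 to 0.07 for co-transfer over mouse sites and from -0.01 to 0.19 for co-transfer over rat sites of day 7. For co-transfer over mouse sites it ran from -0.05 to 0.28 on day 9 and from -0.03 to 0.30 in the interaction. Between days in co-transfer sites Cdh1 ran from -0.07 to 0.16, with -0.07 also under the replicate block and the date block, and Elf3 from -0.03 to 0.28. The cause was not tested.

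Replicate numbers are shared between groups, and the labels do not say that they pair samples. The deviations of same-numbered arrays correlated between -0.207 and 0.09. With the replicate block, Ehf was at 0.03 for co-transfer over mouse sites of day 7, as with the date block, which was chosen after seeing the data. Under the replicate block the calls were 14 for rat over mouse and for co-transfer over rat sites of day 9, 8 for co-transfer over mouse sites of day 9, 12 and 11 for rat and co-transfer over mouse sites of day 7, and 10 between days in mouse sites, where Krt19 lost its call. Counts of calls on rat sites of day 9 include Krt20. The 2 or 3 arrays per group limit what small changes could be called.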
